A study of Homo sapiens with 9 samples.

Results

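Expression of the proteasome genes was examined in PANC-1, a long-established pancreatic ductal carcinoma cell line of human origin, in 9 polyadenylated-RNA libraries: 3 labelled ACSS2-KO-2, 3 labelled ACSS2-KO-3 and 3 labelled NC. The titles label both knockout groups as deficient in ACSS2, the enzyme that makes acetyl-CoA from acetate in the cytosol and nucleus, and NC was the group they were set against. The titles gave the groups, but the treatment labels disagree with them: over the 6 knockout libraries they run ACSS2-KO, ACSS3-KO, ACSS4-KO, ACSS5-KO, ACSS6-KO and ACSS7-KO, a different name for each library. No drug, dose or time point was given, and all 9 libraries came from the same cell line. The labels did not say what the numbers 2 and 3 stand for, whether each is a clone or a guide, or whether replicates were separate cultures, so the p-values below speak for library-to-library spread alone. The members were the protein-coding rows of the count table with a gene symbol beginning PSMA to PSMG plus a number, and POMP. This gave 50 of 19951 protein-coding genes and of 58735 genes in all. Of these, 49 encode proteasome subunits, activators, inhibitors or assembly factors. PSMC3IP matched the symbol pattern but encodes a recombination protein. Low-count filtering kept 48 members for testing, and the other 2, the testis-specific alpha subunit PSMA8 and the thymus-specific catalytic subunit PSMB11, had no count in any library.

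The proteasome degrades proteins tagged with ubiquitin. Its barrel-shaped core is a stack of rings, with alpha subunits forming the outer gates and beta subunits the inner rings, of which only some are proteolytic. A regulatory particle caps the barrel, with a base that holds a ring of ATPases for unfolding and a lid that holds the deubiquitinating enzyme. Dedicated chaperones build the core and the base, and other activators can replace the regulatory particle. In most cells the subunit genes are tuned together by the transcription factor NFE2L1, which binds antioxidant response elements in their promoters when proteasome activity falls. Degradation by the proteasome is needed for cell-cycle progression and for disposal of misfolded proteins, and cancer cells are commonly sensitive to its inhibition.

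Library totals were between 14756572 and 17457190 counts. ACSS2 had 15.1, 14.7 and 12.4 CPM (reads scaled to a common library size by TMM) in the ACSS2-KO-2 libraries, 7.19, 8.57 and 8.50 CPM in the ACSS2-KO-3 libraries, and 33.3, 30.6 and 28.3 CPM in the NC libraries. The transcript was thus lower in both knockout groups than in every NC library but was not lost. The epithelial keratins KRT8, KRT18 and KRT19 and the mesenchymal filament VIM were expressed in all 3 groups. The summed counts of 10 markers of immune, endothelial, acinar and endocrine cells were 5 to 9 per library in ACSS2-KO-2, 0 to 3 in ACSS2-KO-3 and 2 to 4 in NC, with INS and GCG at 0 throughout.

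Promoters of the members were read from RefSeq (GRCh38.p14, 250 bases before to 50 after the annotated start), and 44 of the 50 members had an entry. PSMA7, PSMB1, PSMB6, PSMB7, PSMD4 and PSMG3 had none. The letters TGACNNNGC, the core of the antioxidant response element that NFE2L1 and its small MAF partners bind, were searched on both strands and stood in 13 of 44 member promoters (29.5%), against 3702 of 27305 promoters in the whole table (13.6%). The letters CCAAT, bound by NF-Y, stood in 20 of 44 (45.5%), against 9747 of 27305 (35.7%). The shares of the whole table cover every entry and were not limited to protein-coding or tested genes, whereas all members are protein-coding. The 2 sets of promoters are therefore not alike in kind. The motifs were counted independently of each other, also where they might overlap. A match is a description of the sequence and not evidence of binding. The 6 promoters printed here belong to members that the comparisons below turn on and that hold TGACNNNGC. Capitals mark TGACNNNGC and CCAAT or their reverse complements. PSMD3 (chr17:39980557-39980856 on the plus strand) holds 2 copies of the element, and PSMB3 (chr17:38752491-38752790 on the plus strand), PSMB9 (chr6:32853942-32854241 on the plus strand) and PSMC4 (chr19:39970915-39971214 on the plus strand) hold 1 each. The element of PSMC4 lies after the annotated start. PSMD12 (chr17:67366528-67366827 on the minus strand) and PSME2 (chr14:24146561-24146860 on the minus strand) also hold 1 each.
PSMD3: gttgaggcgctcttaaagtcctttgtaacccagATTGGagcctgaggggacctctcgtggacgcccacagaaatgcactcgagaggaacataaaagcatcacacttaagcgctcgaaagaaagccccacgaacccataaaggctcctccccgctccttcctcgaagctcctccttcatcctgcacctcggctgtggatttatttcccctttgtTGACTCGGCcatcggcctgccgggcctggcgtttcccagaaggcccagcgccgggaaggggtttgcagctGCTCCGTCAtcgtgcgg
PSMB3: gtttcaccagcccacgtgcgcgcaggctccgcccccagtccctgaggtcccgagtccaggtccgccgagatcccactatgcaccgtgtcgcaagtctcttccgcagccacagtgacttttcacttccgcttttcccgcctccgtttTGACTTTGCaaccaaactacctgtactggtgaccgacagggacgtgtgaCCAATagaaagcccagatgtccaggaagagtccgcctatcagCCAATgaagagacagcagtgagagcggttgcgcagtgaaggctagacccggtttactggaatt
PSMB9: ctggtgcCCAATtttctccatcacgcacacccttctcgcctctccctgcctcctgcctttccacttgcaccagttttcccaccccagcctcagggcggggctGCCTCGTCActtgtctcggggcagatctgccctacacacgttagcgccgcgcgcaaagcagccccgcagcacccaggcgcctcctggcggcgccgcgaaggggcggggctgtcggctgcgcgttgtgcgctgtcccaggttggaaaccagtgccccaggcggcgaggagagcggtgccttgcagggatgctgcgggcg
PSMC4: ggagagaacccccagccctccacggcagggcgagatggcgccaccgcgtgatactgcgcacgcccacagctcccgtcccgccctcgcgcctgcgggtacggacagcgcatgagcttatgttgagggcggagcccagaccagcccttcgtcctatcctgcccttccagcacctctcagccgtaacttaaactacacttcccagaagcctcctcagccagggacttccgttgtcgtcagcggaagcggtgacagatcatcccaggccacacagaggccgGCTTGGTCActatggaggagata
PSMD12: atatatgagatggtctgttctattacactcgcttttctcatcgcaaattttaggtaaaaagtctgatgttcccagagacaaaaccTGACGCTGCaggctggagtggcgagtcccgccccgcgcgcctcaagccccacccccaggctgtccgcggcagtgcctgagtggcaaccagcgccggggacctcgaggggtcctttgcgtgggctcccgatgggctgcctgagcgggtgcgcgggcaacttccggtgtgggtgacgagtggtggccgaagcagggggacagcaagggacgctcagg
PSME2: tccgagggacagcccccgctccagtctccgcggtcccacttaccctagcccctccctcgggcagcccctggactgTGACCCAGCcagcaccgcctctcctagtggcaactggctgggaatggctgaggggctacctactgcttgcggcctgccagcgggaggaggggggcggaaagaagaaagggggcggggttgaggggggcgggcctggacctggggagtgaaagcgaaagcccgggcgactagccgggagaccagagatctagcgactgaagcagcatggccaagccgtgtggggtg
Among the 13 members with TGACNNNGC, 7 were higher in ACSS2-KO-3 than in NC, PSMD12 was lower and 5 were not called. Among the 29 tested members whose promoter lacked it, 14 were higher, 6 were lower and 9 were not called. Of all tested genes, 31.2% were higher and 32.1% lower. With offsets for GC content and transcript length, described below, 8 of the 13 with TGACNNNGC were higher, PSMD12 among them, and 1 was lower, and 20 of the 29 without it were higher and 2 lower. With CCAAT, 10 of 19 tested members were higher and 3 lower, and 14 and 1 with offsets. Without CCAAT, 11 of 23 were higher and 4 lower, and 14 and 2 with offsets. Of all tested genes, 28.1% were higher and 29.6% lower with offsets. TGACNNNGC was therefore present in genes that rose, fell and were not called, and no test was made on these counts.

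The question the design poses for these genes is whether loss of ACSS2 moves the proteasome's RNA, and whether both knockouts do so alike. In ACSS2-KO-3 against NC, 26 of 48 tested members were higher and 7 were lower (edgeR quasi-likelihood test, adjusted p under 0.05 over 15811 genes), with a median log2 fold change of 0.21. The median over all tested genes was -0.04, and 31.2% of them were higher and 32.1% lower. In ACSS2-KO-2 against NC, only PSMA7 was called higher and PSME2 lower, with a median of 0.02, while 3.81% of all genes were higher and 2.84% lower. In ACSS2-KO-3 against ACSS2-KO-2, 25 members were higher and 6 lower, with 31.2% and 30.5% of all genes. Both knockouts were compared with the same NC libraries, so their values are given side by side and do not replicate each other. The summed CPM of all members was 7923, 7845 and 7582 in ACSS2-KO-2, 9814, 9661 and 10395 CPM in ACSS2-KO-3 and 7816, 7604 and 7654 in NC. The ACSS2-KO-3 sum was 1.29 times that of NC, and 1.24 times without PSMC4, the most abundant of them. The ACSS2-KO-2 sum was 1.01 times that of NC. Such sums weigh abundant members most and were not computed with GC and length offsets. In ACSS2-KO-3 the carcinoma markers KRT8, KRT18, KRT19 and VIM were 1.28, 1.21, 1.11 and 0.98 times NC. With offsets their log2 fold changes were 0.06, 0.02, -0.09 and -0.25.

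Libraries were also compared without a model. In 27 members all 3 ACSS2-KO-3 libraries lay above all 3 NC libraries, and in 9 they lay below, while 33.1% and 33.8% of all genes did so. In ACSS2-KO-2 the counts were 6 above and 3 below, while 12.6% and 12.1% of all genes did so. The share of members below NC in ACSS2-KO-3 was thus under the background, and the share above was over it. In bulk RNA, fewer cells of a kind and less RNA per cell cannot be told apart.

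**Figure D1:**
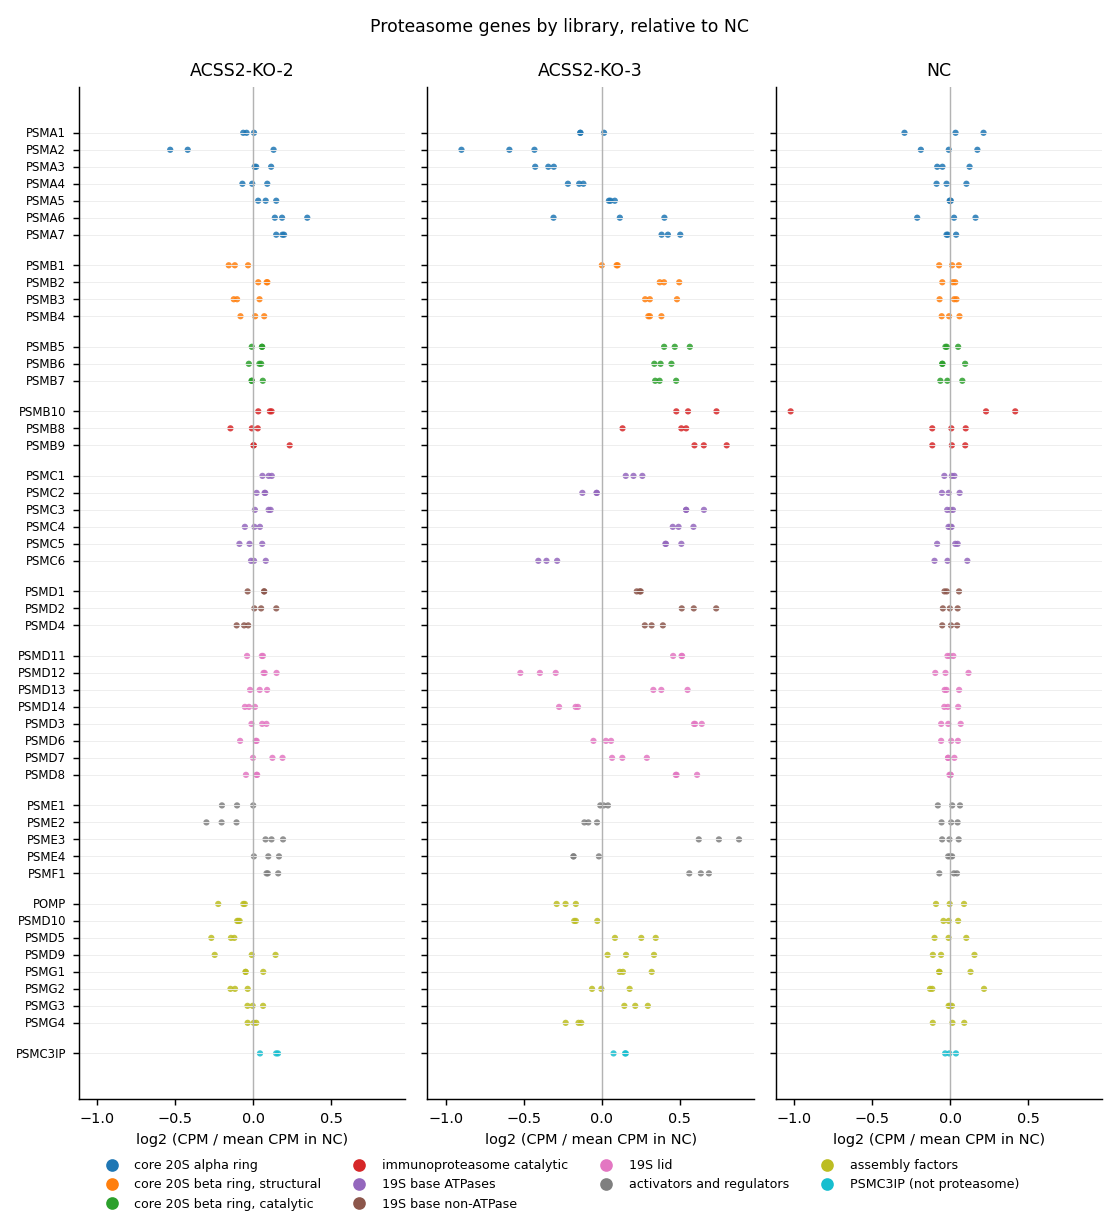
Each point is 1 library's CPM of 1 tested member as log2 over the mean CPM in NC (x axis), with the 3 groups in separate panels and members grouped and coloured by role down the page. Points of ACSS2-KO-2 and NC lie around 0, while ACSS2-KO-3 points of the beta ring, most ATPases, PSME3 and PSMF1 lie to the right and those of PSMA2, PSMA3, PSMC6 and PSMD12 to the left.

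The size of a change in ACSS2-KO-3 followed the base composition of the transcript, and the split between risers and fallers above depends on it. Across the 48 tested members, the log2 fold change against NC and the GC content of the transcript had a Spearman correlation of 0.65, and across 12903 tested protein-coding genes 0.53. In ACSS2-KO-2 the values were -0.02 and -0.02. The points of a comparison share their libraries, and no p is attached. Of the 10 members below 42% GC, 1 was higher and 5 were lower in ACSS2-KO-3, their median being -0.18, where all protein-coding genes of that GC range had a median of -0.70, with 4.71% higher and 76.4% lower. Of the 15 members between 42% and 50% GC, 7 were higher and 2 lower, with a median of 0.17 against -0.01 for all, of which 31.1% were higher and 30.4% lower. Of the 23 members at 50% GC or more, 18 were higher and 5 were not called, with a median of 0.42 against 0.27 for all, of which 54.3% were higher and 12.5% lower.

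A smooth term in GC content and transcript length was then fitted per library and entered as an offset. It was recentred so that the median of all genes stayed in place in both comparisons with NC. With it, 32 members were higher and 3 lower in ACSS2-KO-3 against NC, while 28.1% and 29.6% of all genes were higher and lower. The 22 members higher in both fits were PSMA7, PSMB2 to PSMB9, PSMC3, PSMC4, PSMC5, PSMD1, PSMD2, PSMD3, PSMD4, PSMD5, PSMD8, PSMD11, PSMD13, PSME3 and PSMF1. PSMB10, PSMC1, PSMG1 and PSMG3 lost their call, and PSMD14 was lower in both fits. PSMA3, PSMA4, PSMC6, PSMD12 and POMP turned from lower to higher. PSMA5, PSMC2, PSMD7, PSMD10 and PSME4 were called higher and PSME2 and PSMG4 lower only with offsets. In ACSS2-KO-2 against NC, the offsets left PSMA7 and PSME3 higher, with 5.58% of all genes higher and 5.09% lower. In ACSS2-KO-3 against ACSS2-KO-2 they left 29 members higher and 3 lower, with 25.8% and 28.2% of all genes. In that comparison the median log2 fold change of all genes was -0.02 without offsets and -0.05 with them. With offsets, the Spearman correlation of log2 fold change with GC content in ACSS2-KO-3 against NC was -0.27 across the members. Across the 12903 protein-coding genes it was -0.02. Against ACSS2-KO-2 these values were -0.33 and -0.03. Among the members the relation with GC content thus turned sign and was not removed, so their values with offsets are not free of it. Whether the relation with GC content arose in the cells or in library preparation was not tested. Below 42% GC, 9 of the 10 members were higher with offsets and 0 lower, also at an unadjusted p under 0.05 in edgeR. Over genes of any GC content the shares with offsets were 28.1% and 29.6%. The share of all genes within this GC range was not counted with offsets. PSMC2 had a log2 fold change of -0.06 against NC and of 0.63 with offsets, and PSMD10 of -0.12 and of 0.36 with offsets.

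**Figure D2:**
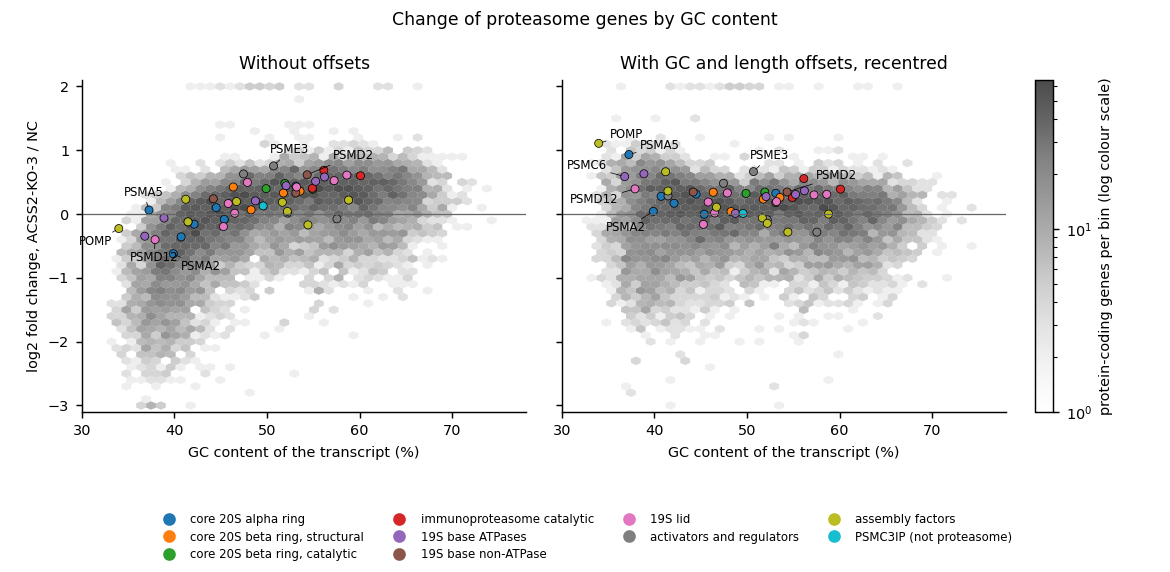
Log2 fold change of ACSS2-KO-3 over NC (y axis) against transcript GC content in percent (x axis), without offsets on the left and with recentred GC and length offsets on the right. Coloured points are the 48 tested members by role, grey hexagons count protein-coding genes on a log colour scale, and genes beyond 2 or -3 are drawn at those limits. POMP, PSMD12 and PSMA2 lie below 0 on the left, yet above -0.70, the median of protein-coding genes below 42% GC. On the right POMP and PSMD12 lie above 0, at 1.11 and 0.39, and PSMA2 lies near it, at 0.04.

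The alpha ring forms the outer gates of the core and was, without offsets, the group with the most falls. In ACSS2-KO-3 against NC, 1 of its 7 genes was higher, PSMA2, PSMA3 and PSMA4 were lower, and PSMA1, PSMA5 and PSMA6 were not called, with a median log2 fold change of -0.08. With offsets 4 were higher and the median was 0.28, and 0 were lower, also at an unadjusted p under 0.05 in edgeR. The counts by role, here and below, stand against 31.2% higher and 32.1% lower over all tested genes. With offsets these shares were 28.1% and 29.6%. PSMA7, a gate subunit, had 256, 254 and 247 CPM in ACSS2-KO-2, 291, 299 and 316 CPM in ACSS2-KO-3 and 219, 221 and 229 CPM in NC. All libraries of both knockouts lay above all NC libraries. Against NC the log2 fold change was 0.44 in ACSS2-KO-3 (SE 0.05, edgeR adjusted p = 1.69e-08). In ACSS2-KO-2 it was 0.18 (SE 0.05, edgeR adjusted p = 0.0279). The ACSS2-KO-2 call was lost when NC 1, NC 2 or any ACSS2-KO-2 library was left out, with edgeR adjusted p between 0.0532 and 0.112. Set against ACSS2-KO-2, PSMA7 in ACSS2-KO-3 had a log2 fold change of 0.26 (edgeR adjusted p = 5.26e-05), which was 0.08 with offsets (edgeR adjusted p = 0.141).

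PSMA2, another alpha subunit, had 5.21, 3.29 and 3.55 CPM in ACSS2-KO-2, 2.55, 3.53 and 3.15 CPM in ACSS2-KO-3 and 5.36, 4.72 and 4.17 CPM in NC. The ACSS2-KO-3 libraries lay below NC and the ACSS2-KO-2 libraries overlapped it. In ACSS2-KO-3 its log2 fold change was -0.62 (SE 0.20, edgeR adjusted p = 0.00817), and 0.04 with offsets (adjusted p = 0.867). PSMA3 and PSMA4 fell with log2 fold changes of -0.36 and -0.16, and with offsets these were 0.28 and 0.17. PSMA5 had a log2 fold change of 0.06, and 0.93 with offsets. The levels of PSMA1, PSMA2 and PSMA6 are uncertain, because 45.8%, 50.1% and 83.5% of the 75-base windows of their transcripts also occur in an overlapping gene or a pseudogene, and how the authors counted such reads is not given in the sources used here.

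In the beta ring, 6 of the 7 constitutive genes were higher in ACSS2-KO-3 than in NC, against 31.2% of all tested genes, and PSMB1 was not called. The structural subunits PSMB2, PSMB3 and PSMB4 rose by 0.42, 0.36 and 0.33 on the log2 scale. PSMB2 had 200, 200 and 192 CPM in ACSS2-KO-2, 248, 243 and 265 CPM in ACSS2-KO-3 and 192, 181 and 190 CPM in NC. The ACSS2-KO-3 libraries stood apart from both other groups, which overlapped. Against NC its log2 fold change was 0.42 (SE 0.05, edgeR adjusted p = 5.27e-08), and 0.34 with offsets. PSMB1 was called higher in ACSS2-KO-3 when set against ACSS2-KO-2, by 0.17, and its log2 fold change against NC was 0.07.

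PSMB5, PSMB6 and PSMB7 carry the chymotrypsin-like, caspase-like and trypsin-like active sites. PSMB5, the main target of proteasome inhibitor drugs, had 118, 118 and 113 CPM in ACSS2-KO-2, 157, 150 and 168 CPM in ACSS2-KO-3 and 112, 111 and 118 CPM in NC. PSMB6 had 150, 149 and 142 CPM in ACSS2-KO-2, 188, 183 and 197 CPM in ACSS2-KO-3 and 155, 140 and 139 CPM in NC. PSMB7 had 140, 133 and 133 CPM in ACSS2-KO-2, 170, 173 and 186 CPM in ACSS2-KO-3 and 141, 128 and 132 CPM in NC. In all 3 genes every ACSS2-KO-3 library exceeded every library of the other groups, and ACSS2-KO-2 overlapped NC. The log2 fold changes in ACSS2-KO-3 against NC were 0.48 for PSMB5, 0.39 for PSMB6 and 0.40 for PSMB7 (edgeR adjusted p at most 6.63e-07, higher in 3 of 3 libraries), and 0.34, 0.27 and 0.32 with offsets. In ACSS2-KO-2 they were 0.03, 0.02 and 0.02, and none was called.

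The immunoproteasome subunits PSMB8, PSMB9 and PSMB10 replace PSMB5, PSMB6 and PSMB7 in cells exposed to interferon and alter the peptides made for presentation on MHC class I. PSMB8 had 19.3, 19.8 and 17.5 CPM in ACSS2-KO-2, 28.2, 21.3 and 27.6 CPM in ACSS2-KO-3 and 17.9, 20.8 and 19.5 CPM in NC. PSMB9 had 12.6, 12.6 and 14.8 CPM in ACSS2-KO-2, 18.9, 19.8 and 21.9 CPM in ACSS2-KO-3 and 13.4, 11.6 and 12.6 CPM in NC. PSMB10 had 2.23, 2.37 and 2.35 CPM in ACSS2-KO-2, 3.202, 3.04 and 3.63 CPM in ACSS2-KO-3 and 2.56, 2.91 and 1.07 CPM in NC. All 3 genes were higher in every ACSS2-KO-3 library than in any NC library, although replicate 3 of NC stood low for PSMB10, at 18 counts. The log2 fold changes in ACSS2-KO-3 were 0.40 for PSMB8 (edgeR adjusted p = 0.000949), 0.68 for PSMB9 (edgeR adjusted p = 1.65e-06) and 0.60 for PSMB10 (edgeR adjusted p = 0.0435). Without NC replicate 3 the PSMB10 value was 0.28 (edgeR adjusted p = 0.299). Its call was also lost without ACSS2-KO-3 replicate 1 or 3 (edgeR adjusted p = 0.0529 and 0.123), with DESeq2 (adjusted p = 0.0619) and with offsets (edgeR adjusted p = 0.188), and 35.4% of its transcript windows also occur in an overlapping gene. None of the 3 was called in ACSS2-KO-2 against NC, with log2 fold changes of -0.04, 0.08 and 0.10.

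The immunoproteasome RNA was a minor part of the catalytic subunits in all groups. Per kb of transcript, PSMB8 was 18.6% ± 0.709 of PSMB5 in ACSS2-KO-2, 18.6% ± 2.18 in ACSS2-KO-3 and 19.6% ± 1.62 in NC (SD, n = 3 each). PSMB9 was 9.90% ± 1.25 of PSMB6 in ACSS2-KO-2, 11.6% ± 0.565 in ACSS2-KO-3 and 9.46% ± 0.417 in NC. PSMB10 was 1.38% ± 0.0822 of PSMB7 in ACSS2-KO-2, 1.4997% ± 0.0797 in ACSS2-KO-3 and 1.31% ± 0.601 in NC. For the PSMB9 ratio, the ACSS2-KO-3 libraries lay above all NC libraries, and the ACSS2-KO-2 libraries spread across both. The other 2 ratios overlapped between all groups, and no test was made on the ratios. PSMB9 lies head to head with TAP1, the peptide transporter subunit, and they share a promoter region. TAP1 was 67.9 ± 3.4 CPM in ACSS2-KO-2, 102 ± 6.8 CPM in ACSS2-KO-3 and 59.9 ± 4.6 CPM in NC (SD, n = 3 each), a log2 fold change of 0.77 in ACSS2-KO-3 (edgeR adjusted p = 8.08e-11). TAP1, TAP2, TAPBP and the interferon factor IRF1 were higher in ACSS2-KO-3 against NC, and NLRC5 was not called. The 4 higher were out of 6 immunoproteasome partners listed, where 31.2% of all tested genes were higher. With offsets 2 of the 6 were higher, where 28.1% of all tested genes were. With offsets, the IRF1 and TAPBP values became 0.03 and -0.04.

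**Figure D3:**
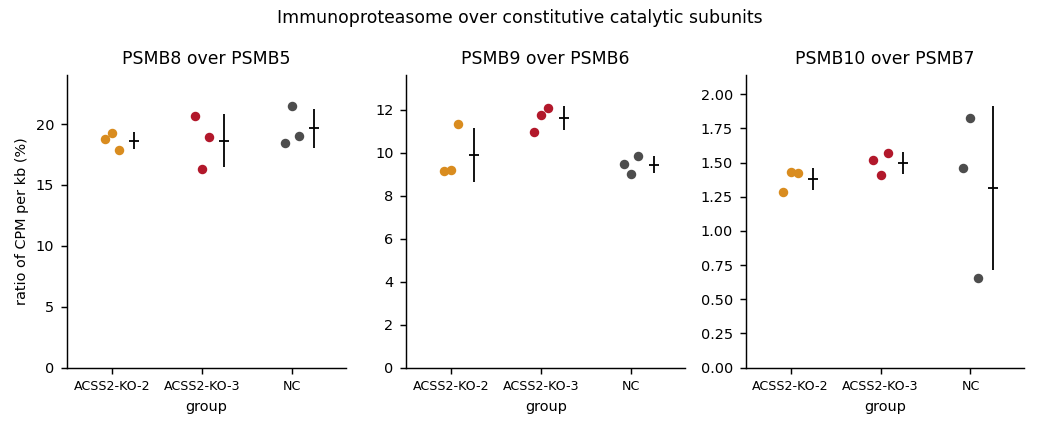
Ratio of each immunoproteasome subunit to the constitutive subunit it replaces, in percent of CPM per kb (y axis from 0), for each library of the 3 groups. Bars are the mean and SD of 3 libraries. PSMB9 over PSMB6 is 11.6% in ACSS2-KO-3 and 9.46% in NC, while the points of the other ratios overlap.

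The base of the regulatory particle holds the ATPases PSMC1 to PSMC6, which unfold substrates and open the gate. In ACSS2-KO-3 against NC, PSMC1, PSMC3, PSMC4 and PSMC5 were higher, PSMC6 was lower and PSMC2 was not called. PSMC3 had 199, 197 and 185 CPM in ACSS2-KO-2, 268, 268 and 290.0 CPM in ACSS2-KO-3 and 184, 182 and 186 CPM in NC. PSMC6 had 78.1, 74.2 and 73.2 CPM in ACSS2-KO-2, 55.7, 60.6 and 57.8 CPM in ACSS2-KO-3 and 79.7, 73.0 and 68.9 CPM in NC. PSMC3 was higher in all ACSS2-KO-3 libraries and PSMC6 lower in all of them than in any NC library. Against NC the change was 0.58 on the log2 scale for PSMC3 (SE 0.05, edgeR adjusted p = 1.72e-10) and -0.35 for PSMC6 (SE 0.06, edgeR adjusted p = 3.43e-05). With offsets PSMC3 remained higher at 0.37, whereas PSMC6 turned to 0.59 (edgeR adjusted p = 7.45e-11). PSMC1 had a log2 fold change of 0.21 and 0.01 with offsets, and 96.3% of its transcript windows also occur in the opposite-strand gene NRDE2 or in pseudogenes. For PSMC5, 19.1% of windows also occur in the opposite-strand gene FTSJ3. FTSJ3 had 771, 815 and 860 counts in NC and 1288, 1231 and 1190 in ACSS2-KO-3. For PSMC6, 15.5% also occur in AC046176.1.

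PSMC4 was the most abundant member by far. It had 2266, 2211 and 2119 CPM in ACSS2-KO-2, 3095, 3016 and 3307 CPM in ACSS2-KO-3 and 2201, 2183 and 2213 CPM in NC. The ACSS2-KO-3 libraries exceeded all others, with a log2 fold change of 0.51 against NC (SE 0.05, edgeR adjusted p = 2.29e-10) and 0.31 with offsets. Per kb, its NC level was 40.9 times the median of the 5 other ATPases, with which it assembles in equal number, and ranked 24 among 12903 tested protein-coding genes. PSMC4 was singled out for this after its values were seen. None of its 75-base windows occurred in another gene. Many of its neighbours before it on chromosome 19 were also abundant: the median CPM per kb in NC of the 13 protein-coding genes starting between 1 and 0.5 Mb before PSMC4 was 24.9 times the median of all tested protein-coding genes. It was 3.23 times within 0.5 Mb on either side and 2.01 times from 2 to 1 Mb before. After PSMC4 it was 0.725 times from 0.5 to 1 Mb and 1.25 times from 1 to 2 Mb. From 4 to 2 Mb before and from 2 to 4 Mb after, it was 0.366 and 0.394 times. The lid subunit PSMD8 lies in the range from 2 to 1 Mb before PSMC4 and was the fifth of the tested members per kb. PANC-1 is known to carry a gain on the long arm of chromosome 19, but DNA was not measured here and its part in these levels was not tested. The high PSMC4 level was present in all 3 groups.

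**Figure D4:**
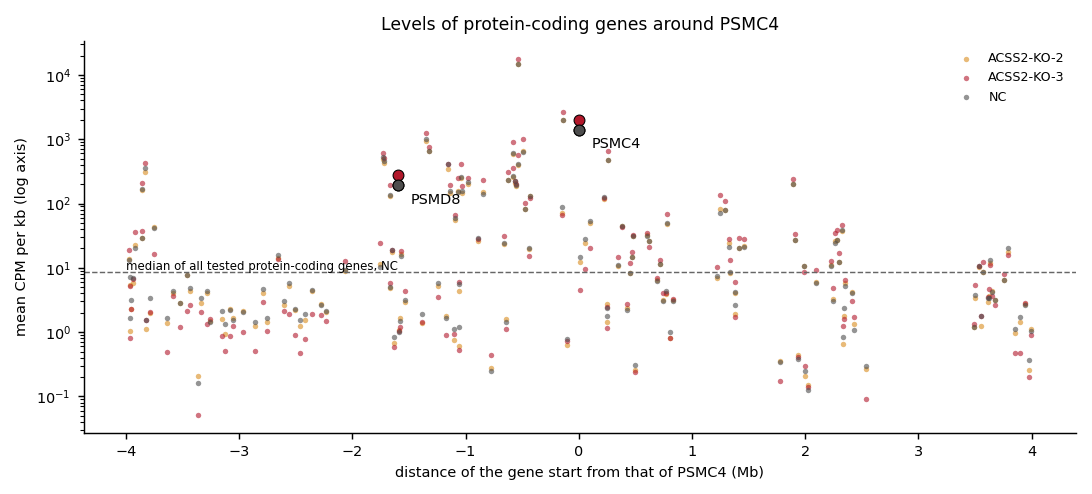
Mean CPM per kb of transcript (y axis, log scale) of tested protein-coding genes by the distance of their start from that of PSMC4 in Mb (x axis), for the 3 groups. The dashed line is the NC median of all tested protein-coding genes. PSMC4 and PSMD8 are outlined, and many genes between -2 and 0.5 Mb lie above the line while most genes beyond 2 Mb on either side lie below it.

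The non-ATPase base subunits PSMD1 and PSMD2 are scaffolds and PSMD4 is a ubiquitin receptor. All 3 were higher in ACSS2-KO-3 than in NC, with and without offsets. PSMD2 had 575, 634 and 593 CPM in ACSS2-KO-2, 862, 817 and 952 CPM in ACSS2-KO-3 and 554, 571 and 591 CPM in NC. The ACSS2-KO-3 libraries lay above both other groups, which overlapped. The log2 fold change was 0.62 (SE 0.06, edgeR adjusted p = 1.70e-10) against NC and 0.55 (edgeR adjusted p = 1.89e-09) against ACSS2-KO-2, and 0.35 and 0.29 with offsets. PSMD1 and PSMD4 rose by 0.24 and 0.33 on the log2 scale against NC.

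Of the 8 lid genes, PSMD3, PSMD8, PSMD11 and PSMD13 were higher in ACSS2-KO-3 than in NC, PSMD12 and PSMD14 were lower, and PSMD6 and PSMD7 were not called. PSMD3, a structural lid subunit, had 160, 157 and 150 CPM in ACSS2-KO-2, 229, 227 and 235 CPM in ACSS2-KO-3 and 145, 150 and 158 CPM in NC. PSMD12, also structural, had 86.7, 82.3 and 81.8 CPM in ACSS2-KO-2, 54.4, 63.7 and 59.4 CPM in ACSS2-KO-3 and 84.8, 73.1 and 76.5 CPM in NC. PSMD14, the deubiquitinating enzyme of the lid, had 127, 133 and 129 CPM in ACSS2-KO-2, 117, 118 and 109 CPM in ACSS2-KO-3 and 136, 130 and 128 CPM in NC. PSMD3 was above NC in all ACSS2-KO-3 libraries, and PSMD12 and PSMD14 were below it in all of them. The log2 fold changes against NC were 0.61 for PSMD3 (SE 0.05, edgeR adjusted p = 7.55e-11), -0.40 for PSMD12 (SE 0.07, edgeR adjusted p = 8.99e-06) and -0.20 for PSMD14 (SE 0.05, edgeR adjusted p = 0.00269). With offsets PSMD3 was 0.31 and PSMD14 -0.16, both still called, and PSMD12 turned to 0.39 (edgeR adjusted p = 2.70e-07). PSMD3 and PSMD12, whose promoters both hold TGACNNNGC, thus moved apart without offsets and together with them. PSMD8, PSMD11 and PSMD13 rose by 0.52, 0.50 and 0.42 against NC. For PSMD13, 12.6% of transcript windows also occur in the opposite-strand gene SIRT3. PSMD14 was named beyond the rule for members with values, after its values were seen.

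Among the activators and regulators, PSME3 and PSMF1 were higher in ACSS2-KO-3 than in NC, and PSME1, PSME2 and PSME4 were not called. The 2 of 5 higher are near the share of all tested genes, 31.2%. PSME1 and PSME2 form the interferon-inducible activator ring of the immunoproteasome, PSME3 the nuclear one, PSME4 is a nuclear monomeric activator and PSMF1 was described as an inhibitor of the core in vitro. PSME3 had 123, 133 and 126 CPM in ACSS2-KO-2, 196, 179 and 214 CPM in ACSS2-KO-3 and 116, 112 and 121 CPM in NC. PSMF1 had 113, 108 and 107 CPM in ACSS2-KO-2, 157, 149 and 163 CPM in ACSS2-KO-3 and 104, 96.3 and 103 CPM in NC. For both genes the ACSS2-KO-3 libraries were highest and the ACSS2-KO-2 libraries also lay above all NC libraries. PSME3 had the highest log2 fold change of the 48 tested members in ACSS2-KO-3 against NC without offsets, 0.75 (SE 0.06, edgeR adjusted p = 2.22e-11), and 0.67 with offsets. PSMF1 rose by 0.63 (edgeR adjusted p = 1.35e-10), and by 0.48 with offsets. In ACSS2-KO-2 against NC, PSME3 was 0.13 (edgeR adjusted p = 0.245) and PSMF1 0.11 (edgeR adjusted p = 0.27).

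PSME2 had 72.4, 67.7 and 63.3 CPM in ACSS2-KO-2, 76.3, 72.1 and 73.4 CPM in ACSS2-KO-3 and 80.5, 78.2 and 74.98 CPM in NC. The ACSS2-KO-2 libraries lay below NC, and the ACSS2-KO-3 libraries overlapped it. The log2 fold change in ACSS2-KO-2 was -0.20 (SE 0.06, edgeR adjusted p = 0.0467). This call was lost when any NC library or ACSS2-KO-2 library 2 or 3 was left out, with edgeR adjusted p between 0.0648 and 0.257, and with RLE scaling, DESeq2, no low-count filter or offsets, with adjusted p between 0.0694 and 0.119. In ACSS2-KO-3 the PSME2 value was -0.08 (edgeR adjusted p = 0.293), and -0.28 with offsets (edgeR adjusted p = 3.58e-05). PSME1, its ring partner, had 58.005, 54.0 and 50.5 CPM in ACSS2-KO-2, 57.6, 59.6 and 58.5 CPM in ACSS2-KO-3 and 60.6, 58.5 and 54.9 CPM in NC, with all groups overlapping. PSME4 had 211, 225 and 236 CPM in ACSS2-KO-2, 186, 208 and 186 CPM in ACSS2-KO-3 and 212, 211 and 209 CPM in NC. The ACSS2-KO-3 libraries of PSME4 lay below NC, with a log2 fold change of -0.12 (edgeR adjusted p = 0.0541), and 0.28 with offsets (edgeR adjusted p = 1.61e-06).

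Among the 8 assembly factors, PSMD5, PSMG1 and PSMG3 were higher in ACSS2-KO-3 than in NC, POMP was lower, and PSMD9, PSMD10, PSMG2 and PSMG4 were not called. Over all tested genes 31.2% were higher and 32.1% lower, so the share higher in this role was near the background. The summed CPM of the 8 genes was 381, 382 and 369 in ACSS2-KO-2, 391, 399 and 414 CPM in ACSS2-KO-3 and 421, 396 and 386 in NC, with ACSS2-KO-3 and NC overlapping. PSMD5, a base chaperone that also restrains capping of the core, had 48.8, 54.0 and 53.2 CPM in ACSS2-KO-2, 62.3, 70.1 and 74.7 CPM in ACSS2-KO-3 and 63.1, 54.8 and 58.3 CPM in NC. Its ACSS2-KO-2 libraries lay below NC while the ACSS2-KO-3 libraries overlapped NC from above. The log2 fold change was 0.23 (edgeR adjusted p = 0.00591) in ACSS2-KO-3, -0.18 (edgeR adjusted p = 0.16) in ACSS2-KO-2, and 0.41 (edgeR adjusted p = 1.67e-05) between them. With offsets these values were 0.66, -0.16 and 0.83.

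POMP, the maturation factor that completes assembly of the core, had 80.9, 80.4 and 71.9 CPM in ACSS2-KO-2, 74.9, 71.5 and 68.8 CPM in ACSS2-KO-3 and 89.3, 83.8 and 78.9 CPM in NC. The ACSS2-KO-3 libraries lay below NC and overlapped ACSS2-KO-2. The log2 fold change against NC was -0.23 (SE 0.06, edgeR adjusted p = 0.00303). At 34.0% GC, the lowest of all tested members, POMP was the gene whose value turned furthest with offsets, to 1.11 (edgeR adjusted p = 1.33e-15). PSMG1 and PSMG3, chaperones of the alpha ring, rose by 0.20 and 0.22 against NC, and these values were 0.11 and 0.00 with offsets. PSMD9 is uncertain, since 31.5% of its transcript windows occur in overlapping genes, as is PSMD7 of the lid at 43.7%.

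Levels per kb differed widely between genes whose products join the same complex in equal number, and also between the assembly factors. In NC the alpha ring ran from 1.97 CPM per kb for PSMA6 to 224 for PSMA7, the structural beta subunits from 69.6 for PSMB2 to 282 for PSMB4, and the catalytic beta subunits from 87.9 for PSMB5 to 170 for PSMB6. The lid ran from 17.7 for PSMD12 to 191 for PSMD8. Assembly factors ran from 2.57 for PSMD9 to 74.9 for PSMD10. The median of the tested members was 56.6 CPM per kb, against 8.55 for all tested protein-coding genes. The lengths are those of the annotated principal transcript, which was not measured here, and the lowest levels, of PSMB10, PSMA6, PSMD9 and PSMA2, are all of genes with shared sequence. Of 32 pseudogenes named after members, 18 had no count and 3 reached 10 counts in any library, with at most 72.

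**Figure D5:**
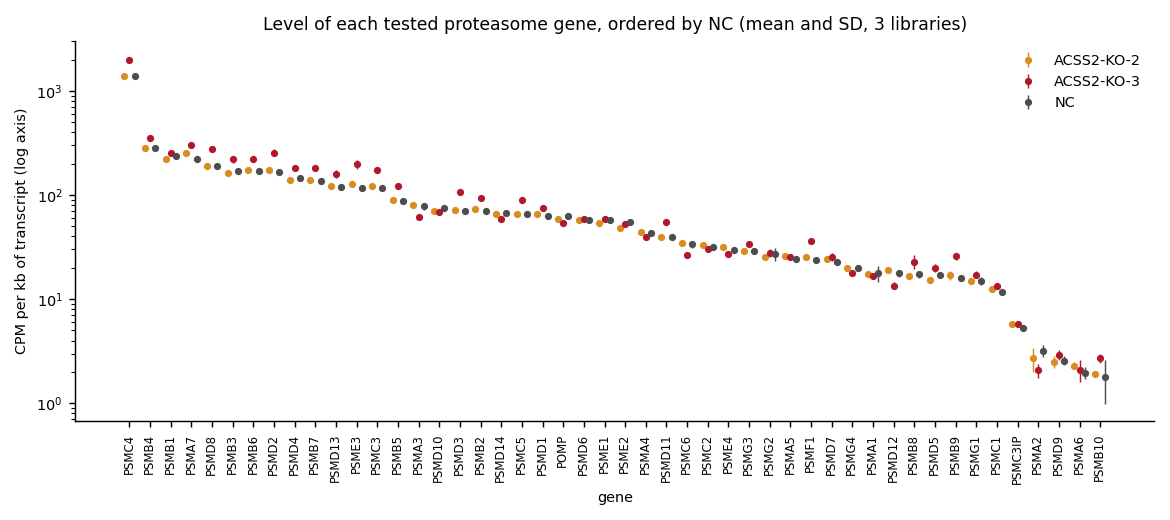
Mean and SD of CPM per kb of transcript (y axis, log scale) of the 48 tested members in the 3 groups (3 libraries each), ordered along the x axis by the NC mean. PSMC4 stands at 1382 in NC, next PSMB4 at 282, and the 4 lowest are PSMA2, PSMD9, PSMA6 and PSMB10.

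Genes that work with the proteasome but fall outside the symbol rule were taken from 5 lists, whose counts stand against 31.2% higher and 32.1% lower over all tested genes, and 28.1% and 29.6% with offsets. Of 12 subunits and cofactors bound to the particle, 7 were higher and 3 lower in ACSS2-KO-3 against NC, and 9 were higher with offsets. SEM1, a small lid subunit, had a log2 fold change of -0.34 and was called lower, and with offsets it was 0.89 and called higher (edgeR adjusted p = 8.50e-12). The ubiquitin receptor ADRM1 was 107 ± 2.0 CPM in ACSS2-KO-2, 171 ± 3.7 CPM in ACSS2-KO-3 and 98.3 ± 1.6 CPM in NC (SD, n = 3 each), a log2 fold change of 0.80, and 0.52 with offsets. Its partner UCHL5, a deubiquitinating enzyme of the regulatory particle, was 54.6 ± 1.5 CPM in ACSS2-KO-2, 25.9 ± 0.84 CPM in ACSS2-KO-3 and 53.8 ± 2.5 CPM in NC. Its log2 fold change was -1.06 (edgeR adjusted p = 3.92e-13), and 0.04 with offsets (edgeR adjusted p = 0.689). ZFAND5, an activator of the particle, was called lower in both knockouts, with log2 fold changes of -0.19 for ACSS2-KO-2 and -0.50 for ACSS2-KO-3, and the ACSS2-KO-3 value was 0.11 with offsets. Of 8 tested shuttle and unfoldase genes, 7 were higher and UBQLN2 was not called, and 7 were higher with offsets, with the unfoldase VCP at 0.63, and at 0.38 with offsets. The shuttle UBQLN1 was higher in both knockouts, with log2 fold changes of 0.18 for ACSS2-KO-2 (edgeR adjusted p = 0.0494) and 0.21 for ACSS2-KO-3. The ACSS2-KO-2 call is just under the threshold of 0.05, and both comparisons use the same NC libraries.

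Of 6 genes for ubiquitin and its activating enzymes, 4 were higher and UBA6 was lower in ACSS2-KO-3 against NC, and 2 and 1 with offsets. UBA1, the main activating enzyme, rose by 0.49, and UBA6, the alternative one, fell, with a log2 fold change of -1.60 (edgeR adjusted p = 3.76e-15) and of -0.54 with offsets. Of 9 genes of the NFE2L1 system, 4 were higher and 3 lower, and 3 and 4 with offsets. The small MAF genes MAFF and MAFG lost their call with offsets, at 0.04 and -0.08, while DDI2, the protease that activates NFE2L1, was called higher at 0.44 and NFE2L3 lower at -0.18. NFE2L1 itself was 314 ± 19 CPM in ACSS2-KO-2, 397 ± 23 CPM in ACSS2-KO-3 and 297 ± 13 CPM in NC, a log2 fold change of 0.42 in ACSS2-KO-3 and 0.13 with offsets. Its small MAF partner MAFK was higher in both knockouts, with log2 fold changes of 0.25 for ACSS2-KO-2 (edgeR adjusted p = 0.00435) and 0.65 for ACSS2-KO-3 (edgeR adjusted p = 8.05e-11). With offsets these were 0.25 and 0.30, and the difference between the knockouts was 0.06 (edgeR adjusted p = 0.323), against 0.40 without offsets. The related factors NFE2L2 and the repressor BACH1 fell in ACSS2-KO-3, with log2 fold changes of -0.92 and -1.14, and of -0.95 and -0.43 with offsets. NFE2L3 was higher in ACSS2-KO-2, at 0.20. The antisense neighbours PSMA3-AS1 and PSMD6-AS2 fell in ACSS2-KO-3 against NC, with log2 fold changes of -1.57 and -1.96, and of -0.86 and -1.61 with offsets. PSMG3-AS1 had a log2 fold change of -0.38 (edgeR adjusted p = 0.0623), and PSMB8-AS1 was too low to test. Whether the authors' counting used strand is not given in the sources used here, so reads of a member and its antisense partner may not have been told apart.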

How the data were processed

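The authors sequenced oligo(dT)-selected, fragmented RNA as paired-end dUTP libraries, per the labels' protocols, and deposited a table of read counts per gene. Cutadapt 1.9, HISAT2 2.2.1 and StringTie 2.1.6 are named with DESeq2, edgeR and build GRCh38 in the submitters' processing notes, without their roles. Which tool counted the reads, and with which strand setting, is not given in the sources used here. Groups were taken from sample titles. From the counts, edgeR 4.0.16 (R 4.3.3) fitted 1 quasi-likelihood model to all 9 libraries with TMM scaling, after filtering at a minimum count of 10 and a total of 15, which left 15811 genes with 6 residual degrees of freedom and a common dispersion of 0.00291. P-values are 2-sided and Benjamini-Hochberg adjusted over all these genes. Alternatives were RLE scaling, DESeq2 1.42.0, limma-voom 3.58.1, no filter, the compared groups only, a replicate block, each library left out, a fold of 1.2, and offsets from natural splines (5 degrees of freedom each) in GC content and log length of the principal GENCODE transcript. The scripts were tested on simulated data. Values in all libraries are given for catalytic subunits, activators, PSMF1, POMP, and, in each other role, the called members with the strongest rise and fall. Members and lists were chosen with earlier results of these data known. Levels are CPM computed from the deposited counts.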

Additional observations from a re-analysis of the deposited data

Results flagged for a closer look

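The change from NC differed between ACSS2-KO-3 and ACSS2-KO-2 in 25 members on the higher side and 6 on the lower side, by the direct contrast of the 2 knockout groups in edgeR with Benjamini-Hochberg adjustment, against 31.2% and 30.5% of all genes. The higher ones were led by PSME3, at 0.63 on the log2 scale, and the lower ones by PSMD12, at -0.50. With recentred GC and length offsets, 29 were higher and 3 lower, and PSMD12 was at 0.29. The cause of the difference between the groups was not tested.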

How the results depend on the processing

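RLE scaling, DESeq2, limma-voom, no low-count filter and fits of only the compared groups kept the members higher in ACSS2-KO-3 against NC between 24 and 27 and those lower between 7 and 9, and the members higher in ACSS2-KO-3 against ACSS2-KO-2 between 25 and 26. In ACSS2-KO-2 against NC, 0 members were lower with RLE scaling, DESeq2, no filter or any offsets, although at an unadjusted p under 0.05 edgeR found 2 lower without offsets and DESeq2 found 1. With a fold of at least 1.2 as well, 0 members were higher and 0 lower in ACSS2-KO-2 against NC, 21 higher and 4 lower in ACSS2-KO-3 against NC, and 20 higher and 3 lower in ACSS2-KO-3 against ACSS2-KO-2. Leaving out single libraries gave 0 to 1 higher and 0 to 1 lower in ACSS2-KO-2 against NC, 24 to 27 higher and 6 to 8 lower in ACSS2-KO-3 against NC, and 24 to 26 higher and 4 to 7 lower in ACSS2-KO-3 against ACSS2-KO-2.

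Same-numbered replicates did not deviate together, with correlations between -0.041 and 0.056, so the numbers were not taken to pair the libraries. A replicate block left the counts at 1 and 1, 26 and 7, and 25 and 6. With the block and GC and length offsets they were 2 and 0, 36 and 1, and 34 and 0.

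GC and length offsets as planned gave 2 higher and 0 lower in ACSS2-KO-2 against NC, 36 and 1 in ACSS2-KO-3 against NC, and 34 and 1 in ACSS2-KO-3 against ACSS2-KO-2. In ACSS2-KO-3 against NC they also moved the median log2 fold change of all genes by 0.13, so a recentred form was added after seeing the data, which gave 2 and 0, 32 and 3, and 29 and 3. With the recentred offsets, 11 of the 48 tested members turned sign in ACSS2-KO-2 against NC, 13 in ACSS2-KO-3 against NC, PSMA3 and PSMA4 among them, and 19 in ACSS2-KO-3 against ACSS2-KO-2. Values follow only for the 21 members chosen for values in all libraries, with the offsets as planned, the replicate block with offsets and the recentred offsets in turn. In ACSS2-KO-3 against NC, those of the 21 that turned were PSMA2 (0.18, 0.18, 0.042), PSMC6 (0.72, 0.72, 0.59), PSMD12 (0.53, 0.53, 0.39), PSME4 (0.42, 0.42, 0.28) and POMP (1.24, 1.24, 1.11), and PSME1 with recentred offsets only (-0.089). In ACSS2-KO-3 against ACSS2-KO-2 they were PSMA2 (0.32, 0.34, 0.18), PSMC6 (0.61, 0.61, 0.47), PSMD12 (0.43, 0.43, 0.29), PSME2 (-0.0094, -0.0085, -0.15), PSME4 (0.41, 0.41, 0.27) and POMP (1.22, 1.22, 1.08), and PSME1 with recentred offsets only (-0.056). In ACSS2-KO-2 against NC they were PSMB8 (0.022, 0.022, 0.030) and POMP (0.024, 0.022, 0.031), neither called in any of these fits. Leaving out single libraries turned the sign of values that were not called: PSMB7 ranged from -0.012 to 0.055, PSMB8 from -0.094 to 0.015, PSMB10 from -0.24 to 0.36 and PSMC6 from -0.019 to 0.083 in ACSS2-KO-2 against NC, and PSME1 from -0.0084 to 0.051 in ACSS2-KO-3 against NC. The cause of these changes was not tested. Among the tested members, PSMA6, PSMB10, PSMA2 and PSMD9 had the fewest counts, and counting error limits their values most.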
